A study of Mus musculus with 42 samples.

Results

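The response to TNFa was examined across all genes in cultures of mouse synovial fibroblasts (stromal cells of the joint lining) labelled as TSG-6 knockout. The comparison holds 12 of the 42 arrays of the series, chosen by their titles. Of these, 4 were cultures of knockout-labelled fibroblasts given TNFa at 5 ng/ml for 12 h and 8 were knockout-labelled cultures left untreated. All groups derive from arthritic female BALB/c mice, immunized with cartilage proteoglycan plus the adjuvant DDA, and the knockout lacks Tnfaip6, which encodes TSG-6. The cultures had been grown for up to 6 passages and held overnight in 0.5% fetal calf serum before treatment. For comparison, the series also holds 2 wild-type cultures given TNFa with 5 untreated wild-type cultures, and 4 knockout-labelled cultures given lipopolysaccharide (LPS) at 200 ng/ml. Whether each biological replicate is a separate animal is not stated in the labels, so the p-values measure only the spread between these cultures, which may be technical.

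TNFa is a cytokine of macrophages and T cells that acts on cells through the receptors TNFR1 (Tnfrsf1a) and TNFR2 (Tnfrsf1b). Receptor binding activates a kinase complex that removes the IkB inhibitors, which frees NF-kB to enter the nucleus and to induce chemokines, cytokines and its own inhibitors. In the inflamed joint, synovial fibroblasts are known as targets of TNFa that recruit leukocytes and degrade matrix. TSG-6 is a secreted hyaluronan-binding protein whose gene was found as a gene induced by TNFa.

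Each value is a log2 expression value centred on the median of its probe set over the 42 arrays, so it is a difference and not a level, and values of different genes cannot be ranked as abundances. Differences between groups are on the log2 scale, given ± SE, with limma p-values adjusted over the 18194 genes tested and a threshold of 0.05. The arrays of the knockout-labelled cultures split into sets a and b (names used here, with no label behind them). TNFa arrays 1 and 2 lay in set a with 4 untreated arrays, and TNFa arrays 3 and 4 lay in set b with the other 4. The probe set of 18S ribosomal RNA stood above 1 on TNFa arrays 2 (2.17) and 4 (1.18) and on untreated arrays 7 (4.31) and 8 (3.87), and on 15 arrays of the series in all. Of the fibroblast genes checked, 14 were measured, but centred values cannot show how strongly any of them is expressed.

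Tnfaip6, the gene named by the labels, read 0.13, 0.41, 0.18 and 0.66 on the TNFa arrays, against -0.41 to 0.25 with a median of -0.10 on the untreated arrays. The ranges overlap, and the TNFa cultures stood 0.45 ± 0.17 above the untreated ones, short of the threshold (adjusted p = 0.0666). In wild-type cultures the difference under TNFa was 0.60 ± 0.23, which did not pass either in limma (adjusted p = 0.257). The difference in response between the genotypes was -0.14 ± 0.28 and did not pass. The untreated wild-type arrays read -0.55 to -0.14, so the signal was not lower in knockout-labelled cultures. No source used here places its probe set against the deletion, and the signal therefore does not check the labels, for which reason the cultures are called knockout-labelled.

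TNFa changed 2552 of the 18194 genes, with 1221 higher (6.71% of the genes tested) and 1331 lower (7.32%). The count of members of each list below is to be read beside these shares. The shape of the response differed between the directions. Of the genes that rose, 648 changed less than 1.5-fold, 320 changed 1.5 to 2-fold, 192 changed 2 to 4-fold, 44 changed 4 to 8-fold and 17 changed at least 8-fold. Of the genes that fell, 740 changed less than 1.5-fold, 415 changed 1.5 to 2-fold, 162 changed 2 to 4-fold and 14 changed 4 to 8-fold, and 0 changed 8-fold or more. The median change was 0.55 among the genes that rose and -0.53 among those that fell. All TNFa arrays lay above all untreated arrays for 838 genes (4.61%) and below them for 869 genes (4.78%). In cultures of more than 1 cell type, fewer cells of a type and less RNA per cell cannot be told apart.

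The response was also read in each culture set. All 2552 genes had the same sign in set a and in set b, which the choice of genes on both sets together largely fixes, and 766 of them passed the test in each set alone. A fit that took the set as a block called 8.93% of all genes higher and 10.1% lower, and is named below as the blocked fit. A test of the difference in response between the sets passed for 0 genes in limma, and 983 genes had an unadjusted p under 0.05. Without the arrays with high 18S signal, 1548 of the 2552 genes passed the test. Of all genes tested, that fit called 943 higher and 1117 lower. Leaving out TNFa array 1, 2, 3 or 4 called 915, 1028, 1027 and 1126 genes higher, in that order. The same fits called 969, 1151, 1006 and 1235 genes lower. Counts of list members from these fits are to be read beside these numbers. Of the 1384 changed genes with more than 1 probe set, another probe set passed in the same direction for 724 and in the opposite direction for 4 (Tmpo, Cacfd1, Pnkd and Bcl2l13, named after their values were seen). Each gene is read from a probe set chosen for its high SD, so its other probe sets can show a smaller change. Measured against the untreated mean of their own set, the 4 TNFa arrays had median differences of 0.56, 0.53, 0.58 and 0.58 over the genes that rose. Over the genes that fell these medians were -0.58, -0.51, -0.54 and -0.49. Both groups of genes were called on these same arrays, which largely fixes the sign of the medians.

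**Figure D1:**
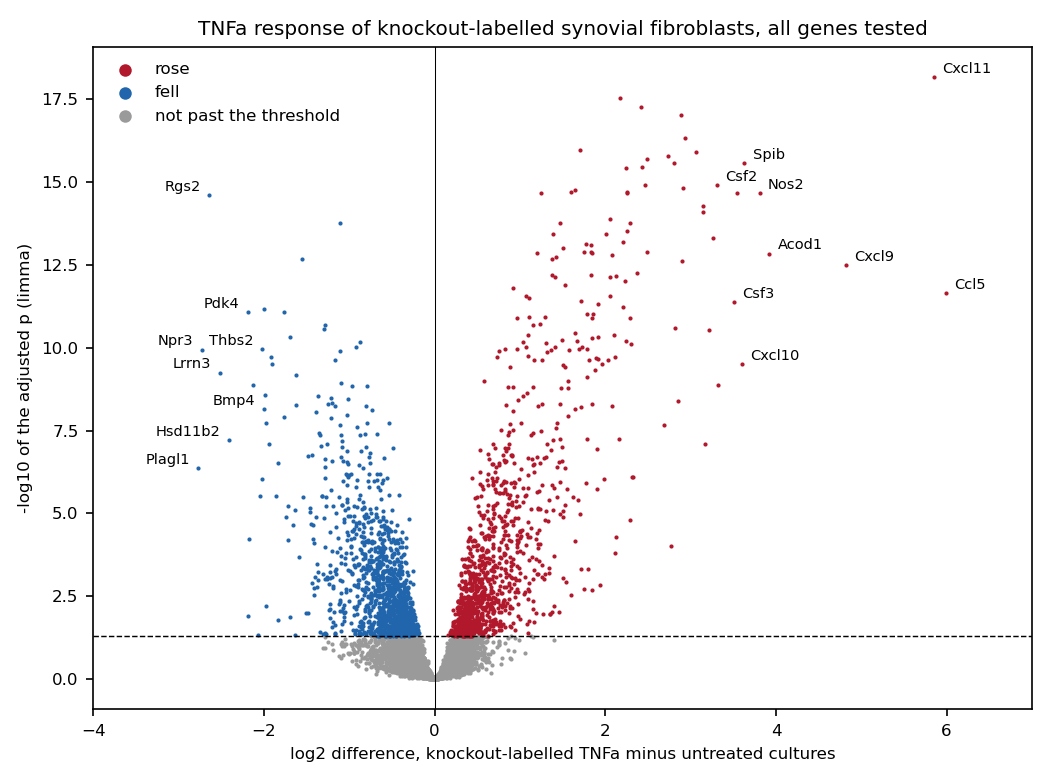
Each point is 1 of the 18194 genes tested, with the log2 difference between knockout-labelled TNFa and untreated cultures on the horizontal axis and -log10 of the adjusted limma p on the vertical axis (dashed line: 0.05). The rises reach 5.99 (Ccl5), while the falls end at -2.77 (Plagl1).

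**Figure D2:**
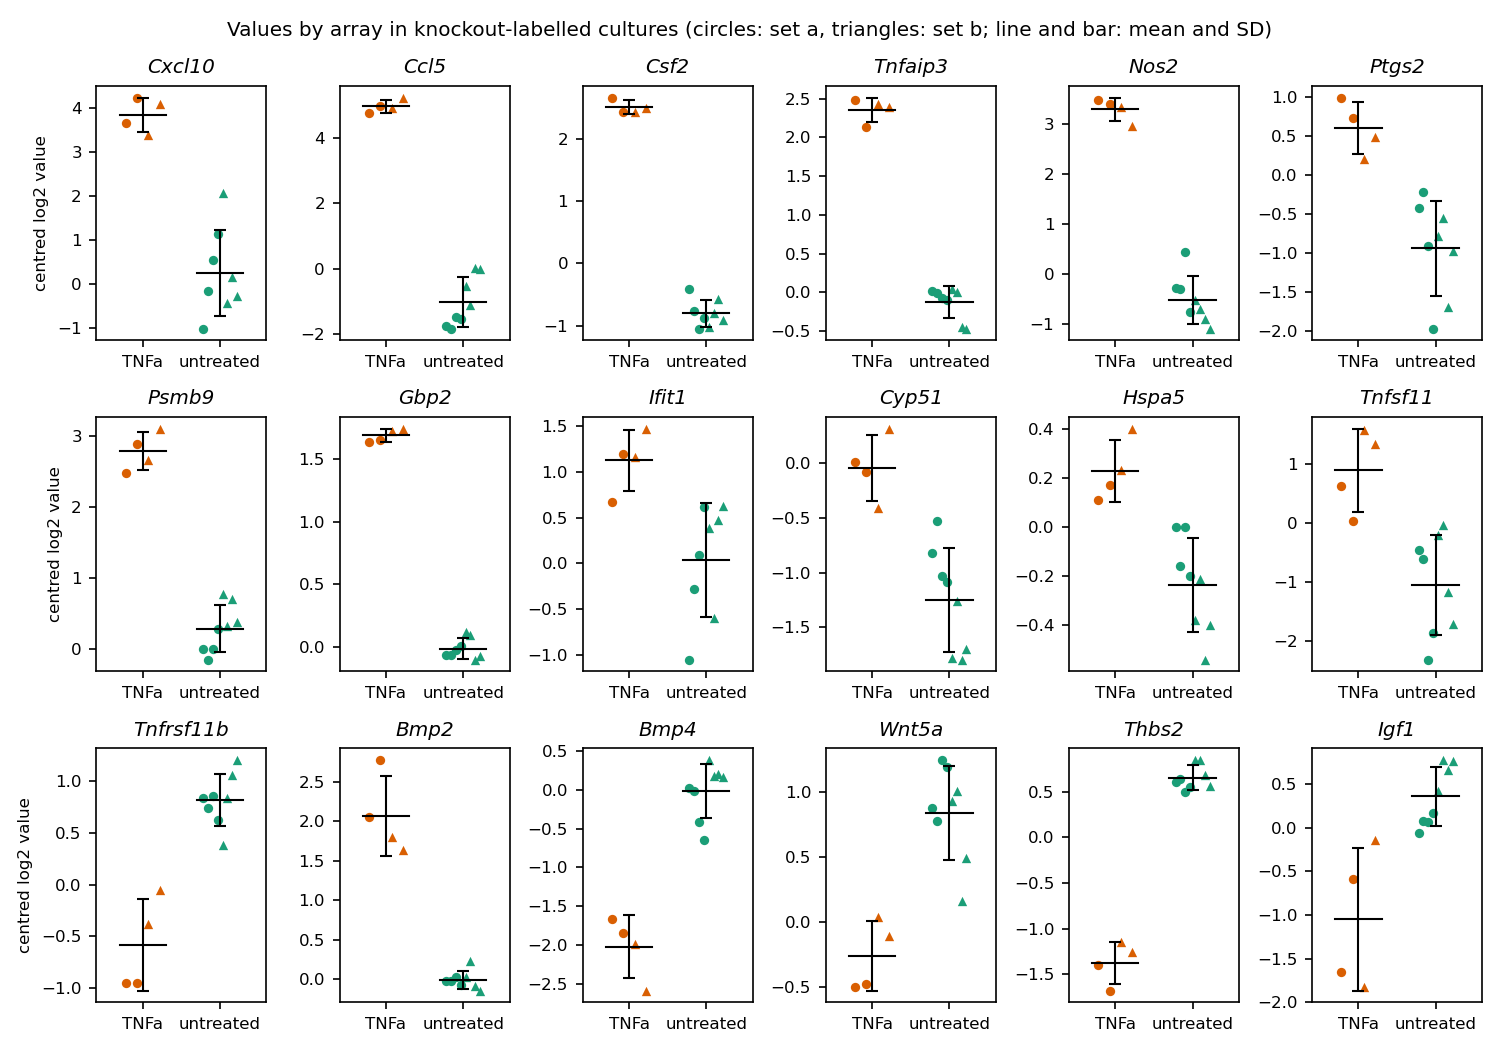
Centred log2 values of 18 genes on the 4 TNFa arrays (left in each panel) and the 8 untreated arrays (right) of knockout-labelled cultures, with circles for set a, triangles for set b, and the mean with its SD. The arrays of the groups do not overlap for any of the 18 genes, with the smallest gap in Ifit1 (lowest TNFa array 0.67, highest untreated array 0.63).

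The promoters of 6 genes that rose are shown because they hold the letters of the binding motifs of NF-kB and of interferon regulatory factors. These are the 250 bases before the gene's start in RefSeq (GRCm38.p6), written 5′ to 3′ on the gene's strand, with motif matches in capitals. The NF-kB motif was searched as GGG, any 2 bases and TTTCC, and the motif of interferon regulatory factors as TTTC, any 2 bases and TTTC, on both strands. The 3 genes per motif with the largest rises among the named genes were taken. Ccl9 (chr11:83578637-83578886, minus strand), Ccl20 (chr1:83116516-83116765, plus strand) and Cxcl2 (chr5:90903649-90903898, plus strand) encode chemokines for myeloid cells, for CCR6-bearing T cells and for neutrophils. Cxcl10 (chr5:92348890-92349139, minus strand) encodes a T cell chemokine, and Gbp3 (chr3:142559794-142560043, plus strand) and Gbp2 (chr3:142620413-142620662, plus strand) encode guanylate-binding proteins of cell-autonomous defence. Gbp3 has 2 promoters in the table, of which the one with matches is shown.
Ccl9: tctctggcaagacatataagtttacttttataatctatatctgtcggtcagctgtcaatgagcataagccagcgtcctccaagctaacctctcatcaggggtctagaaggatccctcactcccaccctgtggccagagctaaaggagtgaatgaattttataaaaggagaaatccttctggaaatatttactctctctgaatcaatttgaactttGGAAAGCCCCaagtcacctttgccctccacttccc
Ccl20: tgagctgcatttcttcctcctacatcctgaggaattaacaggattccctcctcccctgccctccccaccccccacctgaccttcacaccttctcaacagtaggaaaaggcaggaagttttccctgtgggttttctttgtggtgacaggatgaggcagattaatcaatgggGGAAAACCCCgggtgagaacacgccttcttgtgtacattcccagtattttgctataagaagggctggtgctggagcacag
Cxcl2: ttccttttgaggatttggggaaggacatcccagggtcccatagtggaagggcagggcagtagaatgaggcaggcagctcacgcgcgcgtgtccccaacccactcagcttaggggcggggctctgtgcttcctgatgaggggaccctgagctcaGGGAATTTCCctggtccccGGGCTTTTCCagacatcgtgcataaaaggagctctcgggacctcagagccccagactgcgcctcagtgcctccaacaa
Cxcl10: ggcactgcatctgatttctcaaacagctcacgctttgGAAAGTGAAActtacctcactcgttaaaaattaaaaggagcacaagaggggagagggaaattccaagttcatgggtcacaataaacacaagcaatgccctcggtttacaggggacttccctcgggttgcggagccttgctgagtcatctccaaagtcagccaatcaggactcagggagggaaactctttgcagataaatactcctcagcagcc
Gbp3: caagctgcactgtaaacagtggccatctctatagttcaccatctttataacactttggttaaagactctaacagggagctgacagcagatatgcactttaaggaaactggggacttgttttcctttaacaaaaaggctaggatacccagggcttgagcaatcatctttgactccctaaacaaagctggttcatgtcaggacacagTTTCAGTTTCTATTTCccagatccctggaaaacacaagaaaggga
Gbp2: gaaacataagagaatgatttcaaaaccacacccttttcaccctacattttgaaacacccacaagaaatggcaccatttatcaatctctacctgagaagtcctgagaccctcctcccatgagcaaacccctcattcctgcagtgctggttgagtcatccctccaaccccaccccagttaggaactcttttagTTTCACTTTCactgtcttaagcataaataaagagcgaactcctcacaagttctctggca

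Cxcl2 holds 2 matches to the NF-kB motif, which begin at bases -97 and -78 counted back from the start, Ccl20 holds 1 at -80 and Ccl9 holds 1 at -35. The matches to the interferon motif in Gbp3 begin at -45 and -39 and overlap, while Gbp2 holds 1 at -59 and Cxcl10 holds 1 at -213. Promoters were found for 14453 of the genes tested. The NF-kB motif was in 14.3% of the 42 such genes that rose at least 4-fold, 4.79% of the 146 that rose 2 to 4-fold and 3.36% of the 774 that rose less. It was in 1.55% of the genes that did not pass the test, 1.29% of the genes that fell less than 2-fold and 0 of the 130 that fell at least 2-fold. The interferon motif was in 14.3%, 10.3% and 5.43% of the same classes of risen genes, in 2.96% of the genes that did not pass, and in 2.04% and 2.31% of the lesser and larger falls. Over all 32851 promoters in the table, 1.41% held the NF-kB motif and 2.98% the interferon motif. These matches are descriptions of letters in the window and do not show binding.

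The feedback genes of NF-kB rose together. Of 24 measured subunits, inhibitors and feedback genes, 17 rose and 0 fell (median difference 0.57, against 6.71% of all genes higher). Tnfaip3, the ubiquitin-editing enzyme A20 that ends the signal, read 2.48, 2.13, 2.43 and 2.39 on the TNFa arrays, against -0.47 to 0.04 with a median of -0.04 on the untreated arrays. Its difference was 2.49 ± 0.13, or 5.6-fold. The inhibitors Nfkbie (2.23 ± 0.17) and Nfkbia (1.25 ± 0.07) and the A20-binding protein Tnip1 (1.75 ± 0.12) rose at least 2-fold. The receptor adaptor Traf1 (2.01 ± 0.13) and the ubiquitin ligase Birc3 (1.42 ± 0.10) did so too. The subunit genes Nfkb2 (0.81 ± 0.10) and Rela (0.56 ± 0.08) rose less. The kinase subunits Ikbkb and Ikbkg and the deubiquitinase Cyld did not pass the test. Of the same 24 genes, 16 passed without the arrays with high 18S signal.

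Among TNF family ligands, receptors and death signalling genes, 11 of 25 rose and 1 fell. The receptor of membrane-bound TNFa, Tnfrsf1b, rose by 0.98 ± 0.10, whereas Tnfrsf1a had a difference of -0.08 ± 0.07 that did not pass (adjusted p = 0.555). The receptors Cd40 (1.47 ± 0.20) and Fas (0.71 ± 0.10) and the pore-forming protein of necroptosis, Mlkl (1.53 ± 0.14), were higher on every TNFa array. The ligand of B cells Tnfsf13b, known as BAFF, rose by 0.87 ± 0.20. The genes of RANKL and its decoy receptor, which regulate osteoclast formation, moved in opposite directions. Tnfsf11, the osteoclast-forming ligand RANKL, read 0.62, 0.04, 1.58 and 1.34 in the TNFa cultures, against -2.31 to -0.03 with a median of -0.88 in the untreated cultures. Its decoy receptor osteoprotegerin, Tnfrsf11b, read -0.95, -0.95, -0.38 and -0.05 in the TNFa cultures, against 0.38 to 1.21 with a median of 0.84 in the untreated cultures. The differences were 1.94 ± 0.43 (adjusted p = 0.00146) and -1.40 ± 0.30 (adjusted p = 0.000831).

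The 3 largest rises among the genes with separate arrays were chemokines. Of 29 measured, 15 rose, 11 of them at least 2-fold, and 1 fell. Ccl5, a chemokine of T cells and monocytes, read 4.74, 4.97, 4.91 and 5.22 on the TNFa arrays, against -1.84 to 0.01 with a median of -1.29 on the untreated arrays, a difference of 5.99 ± 0.46 or 63.5-fold. The ligands of the T cell receptor CXCR3 followed, with Cxcl11 at 5.85 ± 0.24, Cxcl9 at 4.82 ± 0.34 and Cxcl10 at 3.60 ± 0.34. The other probe sets of Cxcl11 and Cxcl9 also rose, by 0.77 and 1.22. Cxcl10 read 3.66, 4.23, 3.38 and 4.09 on the TNFa arrays, against -1.03 to 2.06 with a median of -0.01 on the untreated arrays, so its untreated cultures were far apart among themselves. The neutrophil chemokines Cxcl2 (2.89 ± 0.13) and Cxcl3 (1.91 ± 0.15), the CXCR6 ligand Cxcl16 (2.25 ± 0.13) and Ccl20 (3.17 ± 0.38) rose as well. Ccl2, the main chemokine of monocytes, rose by 0.73 ± 0.07. The exception was Ccl27a, a chemokine of skin-homing T cells, which fell by 0.72 ± 0.16. Of the chemokines of stroma and granulocytes, Cxcl12 (0.10 ± 0.45), Ccl11 (0.59 ± 0.30) and Cxcl5 (-0.02 ± 0.14) did not pass the test. Without the arrays of high 18S signal, 13 of the 29 chemokines rose and 1 fell.

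Growth factors of granulocytes and macrophages rose. Of 17 colony-stimulating factors, IL-6 family cytokines and receptors, 6 rose and 0 fell. Csf2, the growth factor GM-CSF, read 2.66, 2.43, 2.43 and 2.50 on the TNFa arrays, against -1.05 to -0.41 with a median of -0.84 on the untreated arrays, a difference of 3.31 ± 0.19. Csf3 (G-CSF) rose by 3.51 ± 0.28, Il6 by 2.13 ± 0.37, Lif by 1.79 ± 0.17 and Csf1 (M-CSF) by 1.22 ± 0.17. The shared receptor chain Il6st had a difference of -0.02 ± 0.43 that did not pass. In the IL-1 family 5 of 19 genes rose, among them 2 that restrain signalling, the decoy Il18bp (1.64 ± 0.14) and the kinase Irak3 (1.15 ± 0.31). The cytokine genes Il1a and Il1b themselves did not pass (adjusted p = 0.306 and 0.866).

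Most genes that interferons induce rose. Of 37 measured antiviral interferon-stimulated genes, 30 rose and 0 fell, with a median difference of 0.99. The nucleic acid sensor Zbp1 (2.29 ± 0.19), the ADP-ribosyltransferases Parp14 (1.91 ± 0.16) and Parp12 (1.11 ± 0.09), the regulator Dhx58 (1.65 ± 0.18) and the ubiquitin ligase Trim21 (1.47 ± 0.09) were among those with the smallest adjusted p. Oas1a, an activator of RNA decay, rose by 1.43 ± 0.19, and Oasl2 by 1.90 ± 0.23. Of 9 interferon-inducible GTPases 8 rose, each at least 2-fold, and Irgm1 (0.30 ± 0.15) did not pass. Gbp2 read 1.63, 1.65, 1.72 and 1.74 on the TNFa arrays, against -0.10 to 0.12 with a median of -0.04 on the untreated arrays, a difference of 1.69 ± 0.15. Gbp3 rose by 2.30 ± 0.20, Igtp by 1.56 ± 0.17 and Ifi47 by 1.85 ± 0.19. Probe sets of such families can also bind near-identical copies.

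The signalling genes upstream showed a mixed picture. Of 27 interferon and JAK-STAT genes, 11 rose and 1 fell. The factors Irf1 (1.60 ± 0.09) and Irf7 (1.26 ± 0.25), the kinase Jak2 (2.21 ± 0.18) and the brakes Socs1 (0.95 ± 0.14) and Usp18 (1.20 ± 0.20) rose, and Socs2, another suppressor, fell by 0.55 ± 0.16. Ifnb1, the gene of interferon beta, read 0.10, -0.28, 0.11 and 0.32 on the TNFa arrays, against -0.15 to 0.84 with a median of -0.05 on the untreated arrays, and did not pass (adjusted p = 0.941). The interferon response varied between cultures. Against the untreated mean of their set, the TNFa arrays had median differences over the 37 antiviral genes of 0.86, 1.24, 0.83 and 1.21, and the untreated arrays lay between -0.50 and 0.32 against the other untreated arrays of their set. TNFa arrays 2 and 4, the higher of these, are those with the high 18S signal, whose part in the result was not tested. Without the arrays of high 18S signal, 27 of the 37 genes, 6 of the 9 GTPases and 13 of the 17 class I genes described next rose. Ifit2 (0.39 ± 0.26) and Rsad2 (0.93 ± 0.41) are among the 7 that did not pass. Socs2 did not pass without TNFa array 1 or without TNFa array 3.

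Most genes of MHC class I presentation rose, and few of class II did. Of 17 class I genes, 13 rose and 0 fell, with a median difference of 1.06. Psmb9, a catalytic subunit of the immunoproteasome, read 2.48, 2.88, 2.66 and 3.10 on the TNFa arrays, against -0.15 to 0.77 with a median of 0.30 on the untreated arrays, a difference of 2.49 ± 0.17. Its partners Psmb8 (2.37 ± 0.17) and Psmb10 (2.42 ± 0.11), the activator Psme1 (1.07 ± 0.10), the peptide transporter subunit Tap2 (1.39 ± 0.09) and the class I transactivator Nlrc5 (1.81 ± 0.17) rose as well. The light chain B2m did not pass (0.11 ± 0.12). Of 27 constitutive proteasome subunits 9 rose and 0 fell, each less than 1.5-fold, such as Psma5 (0.47 ± 0.07) and Psma7 (0.51 ± 0.09), and 3 of the 27 rose without the arrays of high 18S signal, 2 without TNFa array 1 and 4 without TNFa array 2. The proteasome assembly factor Pomp (0.53 ± 0.07) was among the 5 small rises with the smallest p. Of 11 class II genes, Cd74 (1.29 ± 0.21) and the promoter factor Rfx5 (0.42 ± 0.07) rose, and neither the transactivator Ciita nor H2-Aa passed (adjusted p = 0.877 and 0.847).

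Innate sensing genes rose in 13 of 24 cases, and 0 fell. Clec4e, a receptor for mycobacterial glycolipid, was the largest at 3.32 ± 0.33, and its other probe set rose by 0.64. The receptors Tlr2 (1.58 ± 0.14), Tlr3 (1.40 ± 0.20) and Cd14 (1.06 ± 0.15), the inflammasome sensor Nlrp3 (0.91 ± 0.11) and the pyroptosis effector Gsdmd (1.53 ± 0.11) rose. Tlr4, the receptor of LPS, had a difference of -0.83 ± 0.30 that did not pass (adjusted p = 0.0641). It read -1.52, -0.13, -1.87 and -0.17 on the TNFa arrays, so arrays 1 and 3 were low and arrays 2 and 4, those with high 18S signal, were not. Without the arrays of high 18S signal its difference was -1.76 (adjusted p = 0.000114). In complement, the alternative pathway protease Cfb (2.29 ± 0.36) and C2 (1.08 ± 0.18) rose and the lectin pathway protease Masp1 fell by 0.97 ± 0.10. Of 22 adhesion genes, the leukocyte ligands Icam1 (1.36 ± 0.12), Vcam1 (1.09 ± 0.37) and Madcam1 (2.16 ± 0.25) and the hyaluronan receptor Cd44 (1.53 ± 0.20) rose, while the cell contact genes Ncam1, Cdh2 and Itga1 fell (-0.74, -0.83 and -1.08). Without the arrays of high 18S signal 10 of the 24 sensing genes rose and 1 fell, and Vcam1 did not pass. Vcam1 also did not pass on leaving out any 1 of the 4 TNFa arrays or any 1 of untreated arrays 3, 4, 7 and 8, nor Itga1 on leaving out TNFa array 1.

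Of 18 enzymes and carriers of nitric oxide, itaconate and arginine metabolism, 6 rose and 1 fell. Nos2, the inducible nitric oxide synthase, read 3.47, 3.40, 3.34 and 2.95 on the TNFa arrays, against -1.10 to 0.43 with a median of -0.62 on the untreated arrays, a difference of 3.81 ± 0.22. Its cofactor enzyme Gch1 (1.48 ± 0.15) and the arginine carriers Slc7a2 (1.71 ± 0.35) and Slc7a1 (0.70 ± 0.19) rose with it. So did Arg2, the arginase that uses the same substrate (2.82 ± 0.24), and Acod1, which makes itaconate (3.92 ± 0.27). Ddah2, which breaks down an inhibitor of nitric oxide synthases, fell by 0.37 ± 0.10. Of 19 prostaglandin genes 6 rose and 1 fell. The cyclooxygenase Ptgs2 (1.54 ± 0.34) and the prostaglandin E synthases Ptges (1.79 ± 0.15) and Ptges2 (0.71 ± 0.09) rose, whereas the prostacyclin synthase Ptgis fell by 0.75 ± 0.14. The prostacyclin receptor Ptgir rose by 0.96 ± 0.14. Slc7a1, Ddah2 and Ptgs2 did not pass without the arrays of high 18S signal.

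Of the matrix-degrading enzymes, 6 of 26 metalloproteinases and inhibitors rose (10 in the blocked fit) and 4 fell. The gelatinase Mmp9 (3.14 ± 0.19), the aggrecanase Adamts4 (2.12 ± 0.16) and the sheddase Adam8 (1.11 ± 0.26) rose at least 2-fold. Of the inhibitors, Timp1 rose by 0.53 ± 0.07, and Timp3 and the membrane inhibitor Reck fell (-1.38 ± 0.31 and -1.08 ± 0.16). Mmp3 and Mmp13 did not pass (adjusted p = 0.775 and 0.65). Mmp3 read 0.24, 0.26, 0.26 and 0.24 on the TNFa arrays, against -0.20 to 0.05 with a median of -0.05 on the untreated arrays, so the groups did not overlap although the test over all groups made no call. Timp3 did not pass without the arrays of high 18S signal.

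Genes of structural matrix were lower more often than higher. Of 44 matrix glycoproteins and proteoglycans, 10 fell (16 in the blocked fit) and 1 rose, beside 7.32% of all genes that fell. Thbs2, a matricellular protein that restrains vessel growth, read -1.40, -1.68, -1.15 and -1.26 on the TNFa arrays, against 0.49 to 0.85 with a median of 0.62 on the untreated arrays, a difference of -2.02 ± 0.18. Tgfbi (-1.59 ± 0.30), Thbs1 (-1.37 ± 0.30), Nid2 (-1.10 ± 0.14) and the small leucine-rich proteins Aspn (-2.19 ± 0.62), Omd (-1.98 ± 0.51) and Ogn (-1.84 ± 0.54) fell at least 2-fold as well. Without TNFa array 1, 6 of the 44 fell, and Aspn and Ogn passed neither there nor without TNFa array 3. Agrn, the basement membrane proteoglycan agrin, rose by 1.04 ± 0.15. Of 23 collagen chains 5 fell, with Col11a1 (-1.21 ± 0.13) ahead of Col8a1 (-0.79 ± 0.16), Col8a2, Col6a3 and Col4a5, and Col5a3 (1.85 ± 0.13) and Col18a1 (1.41 ± 0.13) rose. The chains of the main fibrillar collagens, Col1a1 (-0.05 ± 0.21) and Col3a1 (0.06 ± 0.20), did not pass. Of 28 contractile genes 6 fell, including Fhl2 (-1.15 ± 0.18) and Myh10 (-0.67 ± 0.08), and 1 rose, while Acta2 did not pass (0.29 ± 0.28). In the hyaluronan list 5 of 29 genes rose and 0 fell, among them the synthase Has1 (0.86 ± 0.15). Has2 had a difference of -0.49 ± 0.22 that did not pass (adjusted p = 0.147).

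**Figure D3:**
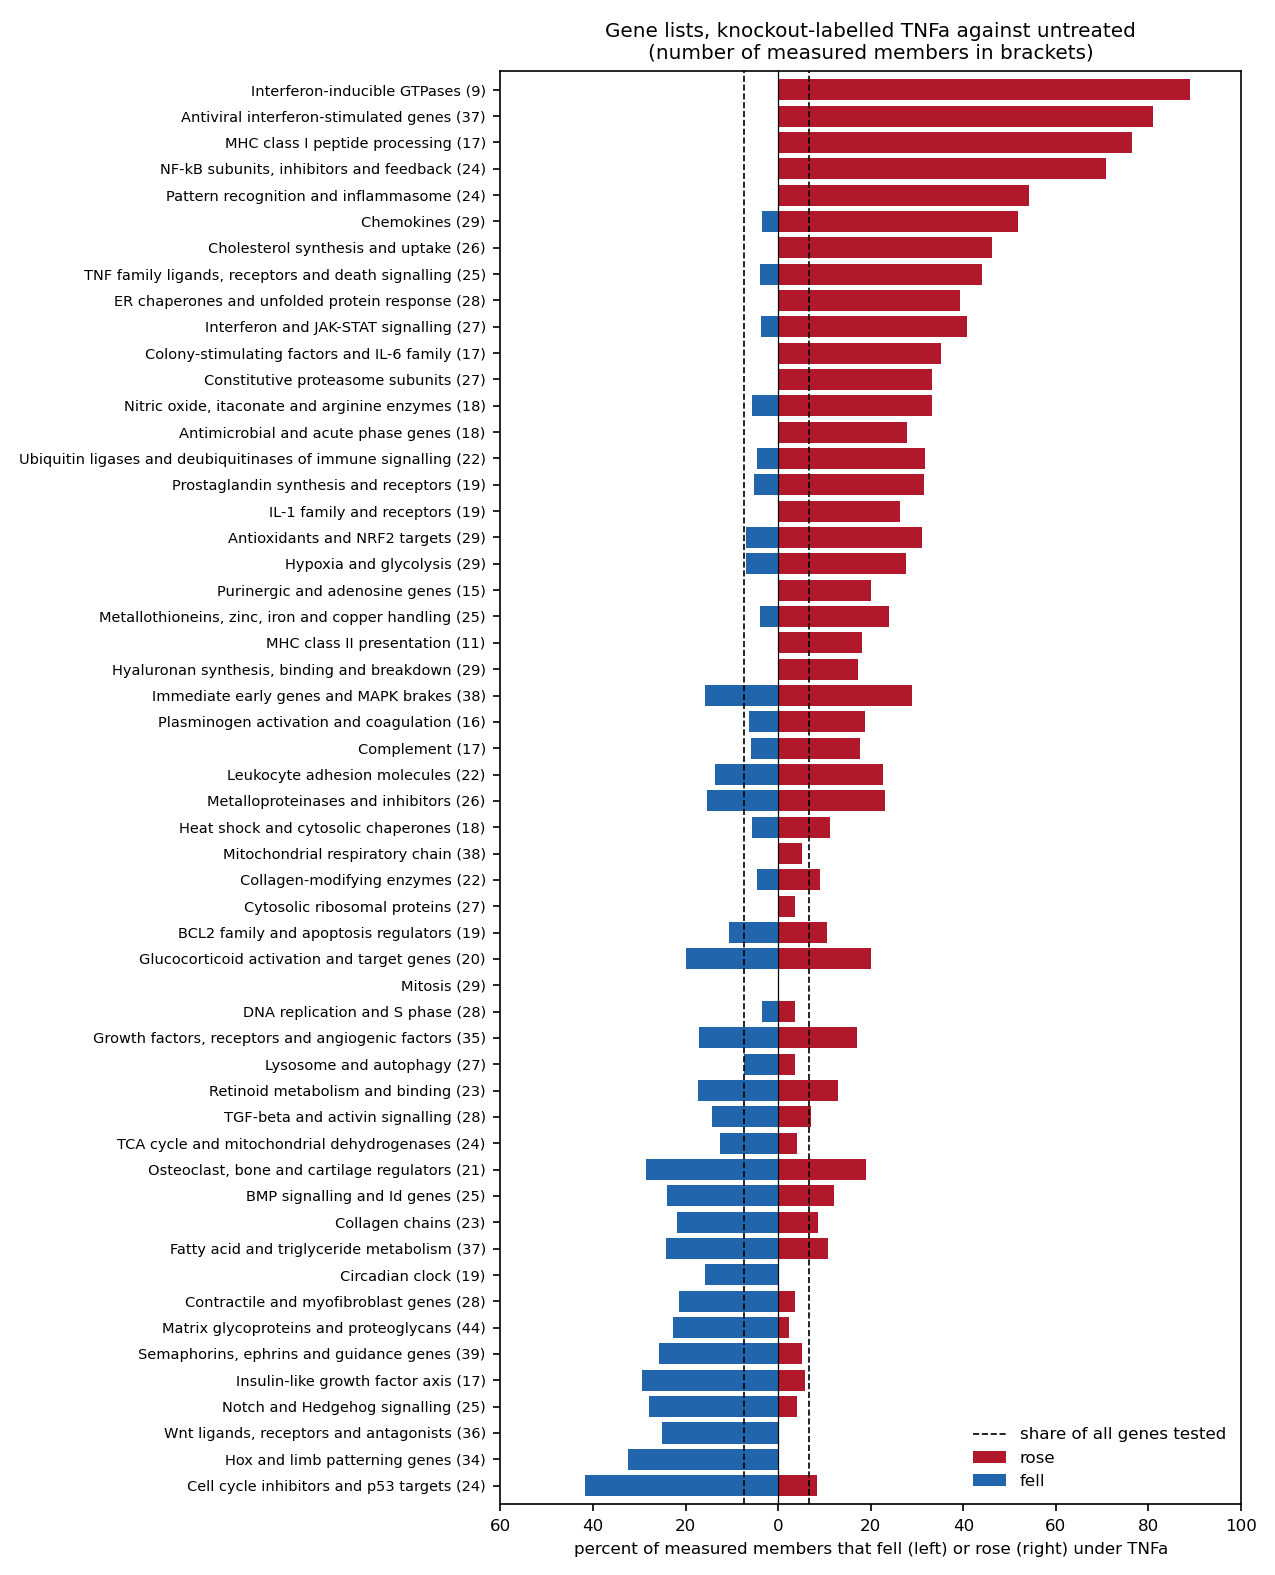
Percent of the measured members of each gene list that rose (right, red) or fell (left, blue) in knockout-labelled TNFa against untreated cultures, with dashed lines at the shares of all genes tested (6.71% higher and 7.32% lower). Lists of interferon, NF-kB and class I genes stand at the top, and lists of patterning, Wnt and cell cycle inhibitor genes at the bottom.

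Wnt, Hedgehog and Hox genes fell more often than they rose. Of 36 Wnt ligands, receptors and antagonists, 9 fell and 0 rose, and the falls covered ligands (Wnt5a at -1.10 ± 0.21, Wnt16 at -1.74 ± 0.27, Wnt2), receptors (Fzd5 at -0.80 ± 0.10, Lrp6 at -0.94 ± 0.14, Fzd2, Fzd4) and antagonists (Dkk2 at -1.48 ± 0.41, Dkk3 at -1.37 ± 0.14). Wnt5a read -0.50, -0.48, 0.04 and -0.11 on the TNFa arrays, against 0.16 to 1.25 with a median of 0.91 on the untreated arrays. The Wnt target Axin2 did not pass (adjusted p = 0.477). Of 25 Notch and Hedgehog genes 7 fell, including the Hedgehog coreceptors Gas1 (-1.05 ± 0.16) and Cdon (-0.61 ± 0.11) and the transcription factors Gli2 (-0.98 ± 0.18) and Gli3 (-0.53 ± 0.11), and the receptor Ptch1 rose by 0.96 ± 0.19. Without the arrays of high 18S signal 4 of the 25 fell, and 6 of the 36 Wnt genes did. In the blocked fit 14 Wnt genes fell and 1 rose. Of 34 Hox and limb patterning genes, which keep a record of position in adult fibroblasts, 11 fell and 0 rose. Hoxc10 (-1.09 ± 0.13), Hoxa10 (-0.92 ± 0.15), Hoxa9 (-0.76 ± 0.12) and the limb factor Shox2 (-0.78 ± 0.18) were among them. Dkk2 did not pass without TNFa array 3.

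BMP genes moved both ways, with 3 of 25 higher (5 in the blocked fit) and 6 lower. Of all genes, 6.71% were higher and 7.32% lower. Bmp2 read 2.05, 2.78, 1.80 and 1.64 on the TNFa arrays, against -0.15 to 0.23 with a median of -0.02 on the untreated arrays, and Bmp4 read -1.66, -1.85, -1.98 and -2.59 on the TNFa arrays, against -0.64 to 0.39 with a median of 0.09 on the untreated arrays. The differences were 2.08 ± 0.14 and -2.00 ± 0.22. The receptor Bmpr1b (1.21 ± 0.22) and the antagonist Nog (0.69 ± 0.09) rose, and Bmp5 (-1.23 ± 0.26) and Id4 (-2.17 ± 0.38), a target that blocks differentiation factors, fell. Of 28 genes of TGF-beta and activin signalling, 2 rose, near the share of all genes, and 4 fell, among them Tgfb3 (-0.64 ± 0.12). In the insulin-like growth factor list 5 of 17 genes fell, led by Igf1. Igf1 read -1.65, -0.59, -1.83 and -0.14 on the TNFa arrays, against -0.06 to 0.78 with a median of 0.29 on the untreated arrays, a difference of -1.41 ± 0.32 (adjusted p = 0.00178). Its lowest values were on TNFa arrays 1 and 3, and its highest on arrays 2 and 4, those with high 18S signal, whose part was not tested. Of the 17 genes, 2 fell without the arrays of high 18S signal and 3 when either TNFa array 1 or 2 was left out.

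Guidance genes fell more often than they rose, and growth factor genes moved both ways. Of 39 semaphorins, ephrins and their receptors, 10 fell, such as the plexin-D1 ligand Sema3e (-2.05 ± 0.30), Sema5a (-1.19 ± 0.36) and Efnb2 (-0.91 ± 0.22). The receptors Nrp2 (1.64 ± 0.09) and Plxnd1 (0.78 ± 0.12) rose. In all, 2 of the 39 rose, near the share of all genes that rose. Of the 39 genes, 4 fell without the arrays of high 18S signal, and 6 without TNFa array 1. Among 35 growth factors and receptors, 6 rose and 6 fell, beside 6.71% of all genes higher and 7.32% lower. The VEGF receptor Flt1 (1.23 ± 0.22), Vegfc (0.77 ± 0.17) and Fgf9 (0.87 ± 0.24) rose, and Vegfd (-1.05 ± 0.21), Fgf18 (-1.08 ± 0.16) and the stem cell factor Kitl (-1.72 ± 0.30) fell. Kitl read -1.43, -0.17, -1.73 and 0.01 on the TNFa arrays, against 0.68 to 1.24 on the untreated arrays. Its higher values were on TNFa arrays 2 and 4, those with high 18S signal, whose part was not tested. Without the arrays of high 18S signal its difference was -2.46. Of 21 regulators of bone and cartilage, 4 rose and 6 fell, and the cartilage factor Sox9 (-1.36 ± 0.16) had the smallest adjusted p. Efnb2 did not pass without the arrays of high 18S signal, Sema5a without TNFa array 1 or without array 3, and Fgf9 without array 3.

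Immediate early genes and brakes of MAP kinase and G protein signalling rose in 11 of 38 cases and fell in 6. The falls numbered 3 without the arrays of high 18S signal, 3 without TNFa array 2, and 2 when either TNFa array 1 or 3 was left out. The largest falls were in Rgs2 (-2.64 ± 0.16) and Rgs4 (-1.97 ± 0.22), which switch off G protein signals, while their relative Rgs16 rose by 1.64 ± 0.29. Fosl1 (1.39 ± 0.21), Jun (0.53 ± 0.09), Junb (0.59 ± 0.10) and Myc (0.78 ± 0.16) rose, whereas Fos (-0.37 ± 0.14) and Egr1 (-0.17 ± 0.17) did not pass at this 12 h time. In the glucocorticoid list 4 of 20 genes rose and 4 fell, with 2 rising when either TNFa array 1 or 3 was left out. The metallothioneins Mt1 (0.92 ± 0.18) and Mt2 (0.43 ± 0.10), the chaperone Fkbp4 (0.33 ± 0.10) and the glutamine synthetase Glul (0.43 ± 0.14) rose. Hsd11b2, the enzyme that inactivates glucocorticoids, fell (-2.41 ± 0.29), as did the target genes Pdk4 (-2.19 ± 0.18) and Sgk1 (-0.56 ± 0.08). The receptor Nr3c1 and the activating enzyme Hsd11b1 did not pass (adjusted p = 0.551 and 0.427).

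Few proliferation genes passed the test. Of 29 mitosis genes 0 passed the limma test in either direction, with 4 at an unadjusted p under 0.05, while in the blocked fit 1 rose and 4 fell. Of 28 genes of DNA replication Pcna rose (0.27 ± 0.08) and Mcm7 fell (-0.45 ± 0.13). Cell cycle inhibitors and p53 targets were lower in 10 of 24 cases (6 without TNFa array 3) and higher in 2. The falls included Cdkn1c (-1.44 ± 0.18), Cdkn2c (-1.39 ± 0.15), Cdkn1b and the imprinted zinc finger gene Plagl1, which had the largest fall among the genes with separate arrays. Plagl1 read -2.36, -2.13, -2.04 and -1.35 on the TNFa arrays, against 0.00 to 1.5 with a median of 0.88 on the untreated arrays, a difference of -2.77 ± 0.36. Of its 3 probe sets 2 fell, and the other had a difference of 0.01. The stress genes Gadd45a (0.58 ± 0.09) and Gadd45b (0.94 ± 0.15) rose, and Cdkn1a did not pass (0.03 ± 0.15). Of 19 BCL2 family and apoptosis genes, the cell death inducers Bmf (-1.54 ± 0.22, with 0.03 by another of its probe sets) and Bcl2l11 (-0.98 ± 0.18) fell and Bid (1.14 ± 0.22) rose. Pcna did not pass without the arrays of high 18S signal or without any one of TNFa arrays 1 and 2 and untreated arrays 3 and 4, and Mcm7 did not without TNFa array 3 or without array 4.

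Of 26 genes of cholesterol synthesis and uptake, 12 rose and 0 fell (median difference 0.55), from the early enzyme Hmgcs1 (0.66 ± 0.17) through Fdps (0.87 ± 0.21) and Sqle (0.89 ± 0.17) to Cyp51 (1.21 ± 0.25) and Sc5d (0.77 ± 0.20). Cyp51 read 0.01, -0.08, -0.41 and 0.32 on the TNFa arrays, against -1.80 to -0.53 with a median of -1.17 on the untreated arrays. The sterol-responsive transcription factor Srebf2 (0.58 ± 0.14) and Ch25h, which makes 25-hydroxycholesterol (1.70 ± 0.26), rose too. Without the arrays of high 18S signal 5 of the 26 rose, and Hmgcs1, Cyp51, Sc5d and Srebf2 were not among them. In the blocked fit 19 of the 26 rose. Fatty acid and triglyceride genes fell in 9 of 37 cases and rose in 4. These counts were 6 and 2 without the arrays of high 18S signal, and 2 rose without TNFa array 2. The adipocyte factors Pparg (-0.95 ± 0.16) and Cebpa (-0.90 ± 0.18), the lipase Lpl (-1.44 ± 0.32), the lipid droplet gene Plin4 (-1.92 ± 0.18) and the fatty acid dehydrogenase Acadm (-0.87 ± 0.08) fell, and Dgat2, which makes triglyceride, rose by 1.71 ± 0.13. Of 8 adipocyte markers 3 fell, with Pparg and Cebpa among them, and their part in these falls was not tested.

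Among glycolysis genes the largest rise was that of the sugar carrier Slc2a6 at 3.54 ± 0.21, followed by the activator Pfkfb3 (1.16 ± 0.15), and Hk2 (0.82 ± 0.12) and Slc2a1 (0.54 ± 0.12) rose less. In all, 8 of 29 hypoxia and glycolysis genes rose (5 without the arrays of high 18S signal, 13 in the blocked fit) and 2 fell (0 without those arrays). Of mitochondrial genes, 2 of 38 respiratory chain genes rose (0 without those arrays) and 0 fell. In the TCA list Idh2 (-1.03 ± 0.11) and Idh1 (-0.47 ± 0.10) fell. Antioxidant genes rose in 9 of 29 cases and fell in 2. The rises were led by Sod2, the mitochondrial superoxide dismutase (1.83 ± 0.13), and the haem oxygenase Hmox1 (1.77 ± 0.24). The zinc importers Slc39a14 (1.19 ± 0.33), Slc39a10 (1.15 ± 0.15) and Slc39a8 (0.83 ± 0.17) and the metallothionein Mt1 (0.92 ± 0.18) rose, and the ferric reductase Cybrd1 fell by 1.62 ± 0.16. Slc2a1 and Slc39a8 did not pass without the arrays of high 18S signal, nor Slc39a14 without TNFa array 1. The glutathione transferases Gsta4 (-0.56 ± 0.12) and Gstm1 (-0.35 ± 0.09) fell, and neither passed without the arrays of high 18S signal.

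Of 28 ER chaperone and unfolded protein genes 11 rose and 0 fell, all less than 2-fold. Hspa5, the chaperone BiP, read 0.11, 0.17, 0.23 and 0.40 on the TNFa arrays, against -0.54 to 0.00 with a median of -0.20 on the untreated arrays, a difference of 0.47 ± 0.11. Creld2 (0.50 ± 0.07), Manf (0.54 ± 0.10) and Asns (0.87 ± 0.20) rose as well, while Xbp1 (0.25 ± 0.21) and Ddit3 (-0.09 ± 0.22) did not pass, and 6 of the 28 rose without the arrays of high 18S signal and 7 without TNFa array 1. Of 27 cytosolic ribosomal protein genes 1 rose, and of 27 lysosome and autophagy genes 1 rose and 2 fell. None of the lysosome falls passed without the arrays of high 18S signal or without any 1 of TNFa arrays 2 and 4 and untreated arrays 3 and 4, nor the rise without TNFa array 1. The ribosomal rise did not pass without the arrays of high 18S signal. In the retinoid list 3 of 23 genes rose and 4 fell (7 in the blocked fit), beside 6.71% of all genes higher and 7.32% lower. The retinoid-responsive genes Tgm2 (1.67 ± 0.15) and Rarres2, which encodes chemerin (2.11 ± 0.39), rose with the synthesis enzyme Aldh1a2 (1.11 ± 0.33), and Adh1 (-1.72 ± 0.26) and Aldh1a7 (-1.69 ± 0.48) fell. Hspa5 did not pass without the arrays of high 18S signal. Aldh1a2 did not without TNFa array 1 or without array 3, nor Aldh1a7 without array 3 or without array 4.

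Some of the largest changes were outside the lists. Fabp7, a fatty acid binding protein known from glia, read 2.16, 2.12, 2.54 and 2.64 on the TNFa arrays, against -1.30 to -0.57 with a median of -0.85 on the untreated arrays, a difference of 3.22 ± 0.27. The gene 1500009L16Rik rose by 3.15 ± 0.19, and its other probe set rose by 0.64. The polysialic acid synthase St8sia2 (-2.13 ± 0.21), the LIM domain protein Lmcd1 (-2.02 ± 0.27), the cadherin relative Pcdh9 (-1.99 ± 0.20) and the potassium channel subunit Kcne4 (-1.94 ± 0.23) fell. These 6 genes were taken from those whose arrays did not overlap between the groups, so their separation is part of the choice and not a result.

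Among genes that changed less than 1.5-fold, the smallest p among rises belonged to Dpy19l1 (0.58 ± 0.06), a mannosyltransferase gene, Vdac3 (0.53 ± 0.06), a channel of the outer mitochondrial membrane, Timp1, Tmem185a (0.44 ± 0.06) and Pomp. Among falls it belonged to the lipid phosphatase Plpp1 (-0.53 ± 0.06), the haem-binding protein Pgrmc1 (-0.49 ± 0.06), Sgk1, Bphl (-0.42 ± 0.06) and Arhgef25 (-0.54 ± 0.08). Vdac3 read 0.40, 0.33, 0.27 and 0.39 on the TNFa arrays, against -0.26 to 0.01 with a median of -0.22 on the untreated arrays. The arrays of the groups did not overlap in these 10 genes, which the choice by smallest p on the same arrays largely fixes. Of all genes, 4.61% had all TNFa arrays above all untreated arrays and 4.78% below.

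Markers of other cell types are set beside the 6.71% of all genes that rose and the 7.32% that fell. Of 19 macrophage markers 1 rose, Csf1r (0.84 ± 0.17), near the share of all genes that rose, and 0 fell. The defining genes Ptprc (0.02 ± 0.11), Itgam (0.03 ± 0.10) and Cd68 (0.06 ± 0.23) did not pass. Of 14 markers of T, B and NK cells 0 passed in limma, with 0 at an unadjusted p under 0.05, and of 14 of neutrophils and mast cells S100a8 (1.46 ± 0.40) and Camp (0.92 ± 0.09) rose. Of 15 endothelial markers 1 fell (0 without the arrays of high 18S signal), and of 14 fibroblast genes Vim (-0.40 ± 0.07) and Fap (-0.65 ± 0.23) fell. In the blocked fit 7 of these 14 fibroblast genes fell, against 10.1% of all genes. Of 8 adipocyte markers Pparg, Cebpa and the lipase Lipe (-0.37 ± 0.12) fell and 0 rose, and in wild-type cultures 3 of the 8 fell. Lipe did not pass without the arrays of high 18S signal, nor without any 1 of TNFa arrays 2 and 4 and untreated arrays 3 to 8. Of 15 lining and sublining markers, Clic5 (0.86 ± 0.10) rose, and Cd248 (-1.04 ± 0.14), Dpp4 (-1.22 ± 0.26) and Dkk3 fell, while in the blocked fit 3 rose and 5 fell. The median over the macrophage list on the TNFa arrays was 0.18, -0.03, 0.14 and -0.09 against the untreated mean of their set, and untreated arrays lay between -0.23 and 0.19. S100a8 did not pass without TNFa array 3, and Fap did not on leaving out any single array of the comparison.

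**Figure D4:**
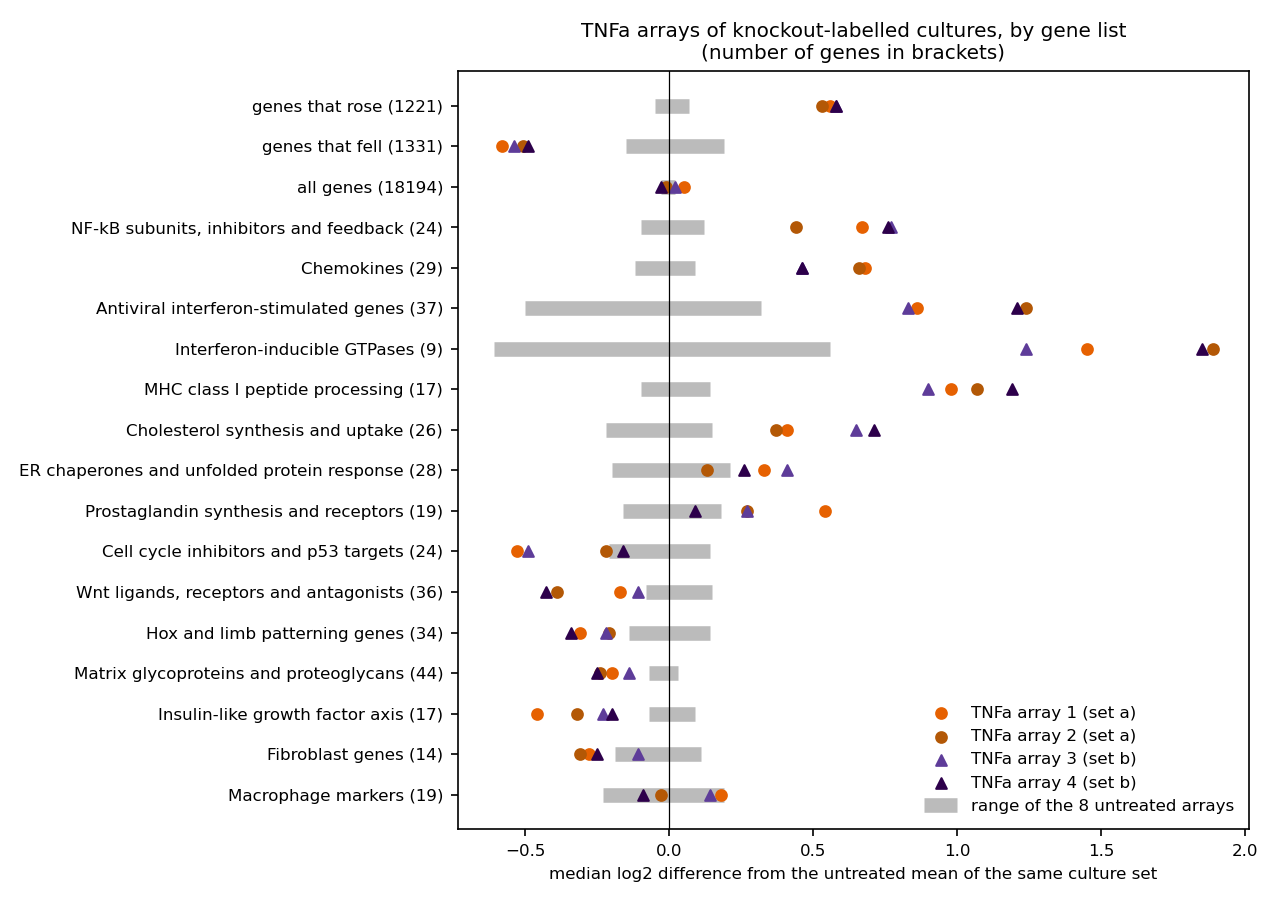
For each gene list, the median log2 difference of each of the 4 TNFa arrays of knockout-labelled cultures from the untreated mean of its culture set, with the range of the 8 untreated arrays, each against the other untreated arrays of its set (grey). The TNFa arrays lie right of the grey range for the NF-kB, chemokine, antiviral interferon-stimulated, GTPase, class I and cholesterol lists and left of it for the Wnt, Hox, matrix and insulin-like growth factor lists.

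The same treatment in wild-type cultures changed 466 genes (2.56%), with only 2 TNFa arrays there. Of the 2552 genes changed in knockout-labelled cultures, 2240 had the same sign in wild-type cultures, 219 rose in both, 133 fell in both and 3 were called in opposite directions. A test of the difference in response between the genotypes passed for 147 genes (0.808%), 102 with the higher response in knockout-labelled cultures and 45 with the lower. Of the 2197 genes called in knockout-labelled but not in wild-type cultures, that test passed for 82. Nos2 rose by 3.81 ± 0.22 in knockout-labelled and by 1.34 ± 0.31 in wild-type cultures, a difference of 2.47 ± 0.38 (adjusted p = 0.000169). Spib, a transcription factor of lymphoid and plasmacytoid cells, rose by 3.63 ± 0.19 in knockout-labelled and by 1.57 ± 0.27 in wild-type cultures, and Cxcl11 by 5.85 ± 0.24 and 3.92 ± 0.33. The transcriptional coactivator gene Cited1 rose by 2.24 ± 0.12 in knockout-labelled cultures and had a difference of -0.04 ± 0.17 in wild-type cultures. Sntb1, a syntrophin, rose by 2.74 ± 0.14, against 0.41 ± 0.20 that did not pass in wild-type cultures.

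Id2, Chrna7 and Cttnbp2 had differences of 0.03 ± 0.21, -0.10 ± 0.24 and -0.09 ± 0.21 in knockout-labelled cultures, which did not pass, against -2.17 ± 0.28, -2.31 ± 0.33 and -2.23 ± 0.28 in wild-type cultures, where all 3 passed. Their untreated means, in that order, were 0.30, -0.24 and -0.15 in knockout-labelled cultures and 0.96, 4.17 and 3.24 in wild-type cultures. Chrna7 and Cttnbp2 thus stood far lower in knockout-labelled cultures before treatment. The part of these levels in the unlike responses was not tested. Mmp10 rose by 0.78 ± 0.15 in knockout-labelled and by 3.07 ± 0.20 in wild-type cultures (difference -2.29 ± 0.25, adjusted p = 5.65e-07). Ltb, the gene of lymphotoxin beta, rose by 0.48 ± 0.14 and 2.52 ± 0.20 in the same order (difference -2.04 ± 0.24). Plagl1, Hsd11b2, Lrrn3, Chdh and Rab3il1 fell in knockout-labelled cultures (-2.77, -2.41, -2.52, -2.00 and -1.90). Their differences in wild-type cultures, given in the same order, were -0.07 ± 0.49, -0.15 ± 0.39, -0.61 ± 0.33, -0.18 ± 0.22 and -0.13 ± 0.24, and did not pass. In that order, the untreated means were 0.80, 1.89, 1.29, 1.60 and 1.66 in knockout-labelled and 0.33, -0.35, -1.32, -0.15 and -0.38 in wild-type cultures. The TNFa means were -1.97, -0.52, -1.23, -0.39 and -0.24, and 0.26, -0.50, -1.93, -0.33 and -0.51. For all but Plagl1 the genotypes thus stood further apart untreated than under TNFa. Of the 6 probe sets of Rab3il1 3 fell. Chst2 fell by 1.38 ± 0.27 in knockout-labelled cultures and had 0.52 ± 0.37 in wild-type cultures. Its untreated means were 1.52 and -0.41 in that order, and its TNFa means were 0.15 and 0.12. Of its 3 probe sets 2 fell. The genotype comparison rests on the 2 wild-type TNFa arrays. The second of these has high 18S signal (3.55, against 0.01 on the first). Leaving it out, alone or with all arrays of high 18S signal, leaves 1 wild-type TNFa array, and fewer genes passed. The count was 404 with the culture set as a block. Chst2 in knockout-labelled cultures did not pass without the arrays of high 18S signal, nor Ltb without TNFa array 2.

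Against LPS in knockout-labelled cultures, TNFa gave different values for 636 genes (3.50%), higher for 445 (2.45%) and lower for 191 (1.05%). LPS alone changed 326 genes (1.79%) in these cultures. Both comparisons with untreated cultures share the same untreated arrays. Cxcl10 rose by 3.60 ± 0.34 under TNFa and had -0.20 ± 0.34 under LPS, which did not pass, a direct difference of 3.80 ± 0.39 (adjusted p = 1.02e-08). For Cxcl11 the direct difference was 4.24 ± 0.28, for Cxcl9 3.20 ± 0.40, for Spib 3.19 ± 0.22, for Acod1 2.96 ± 0.31 and for Slc2a6 2.62 ± 0.24. Gm266 (2.55 ± 0.24) and the fatty acid receptor Gpr84 (2.46 ± 0.18) were next. Of the 37 antiviral interferon-stimulated genes, 22 were higher under TNFa than under LPS, and LPS raised 1. Of the 24 NF-kB genes, 12 were higher under TNFa and LPS raised 5.

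Both the fall under TNFa and the direct difference from LPS rest on the same TNFa arrays. The natriuretic peptide receptor Npr3 had a direct difference of -2.07 ± 0.28, Plagl1 of -1.70 ± 0.42, Rgs4 of -1.66 ± 0.26, Lrrn3 of -1.58 ± 0.28, Wnt16 of -1.57 ± 0.32, Rgs2 of -1.51 ± 0.18 and Kitl of -1.49 ± 0.35. Rbm33 had -0.42 ± 0.16 under TNFa, which did not pass, and rose by 1.22 ± 0.16 under LPS. Ccl5 rose under both, by 5.99 ± 0.46 under TNFa and 4.31 ± 0.46 under LPS, and its direct difference did not pass (adjusted p = 0.0755). Hsd11b2 fell under both (-2.41 ± 0.29 and -1.86 ± 0.29), and its direct difference did not pass either (adjusted p = 0.567).

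**Figure D5:**
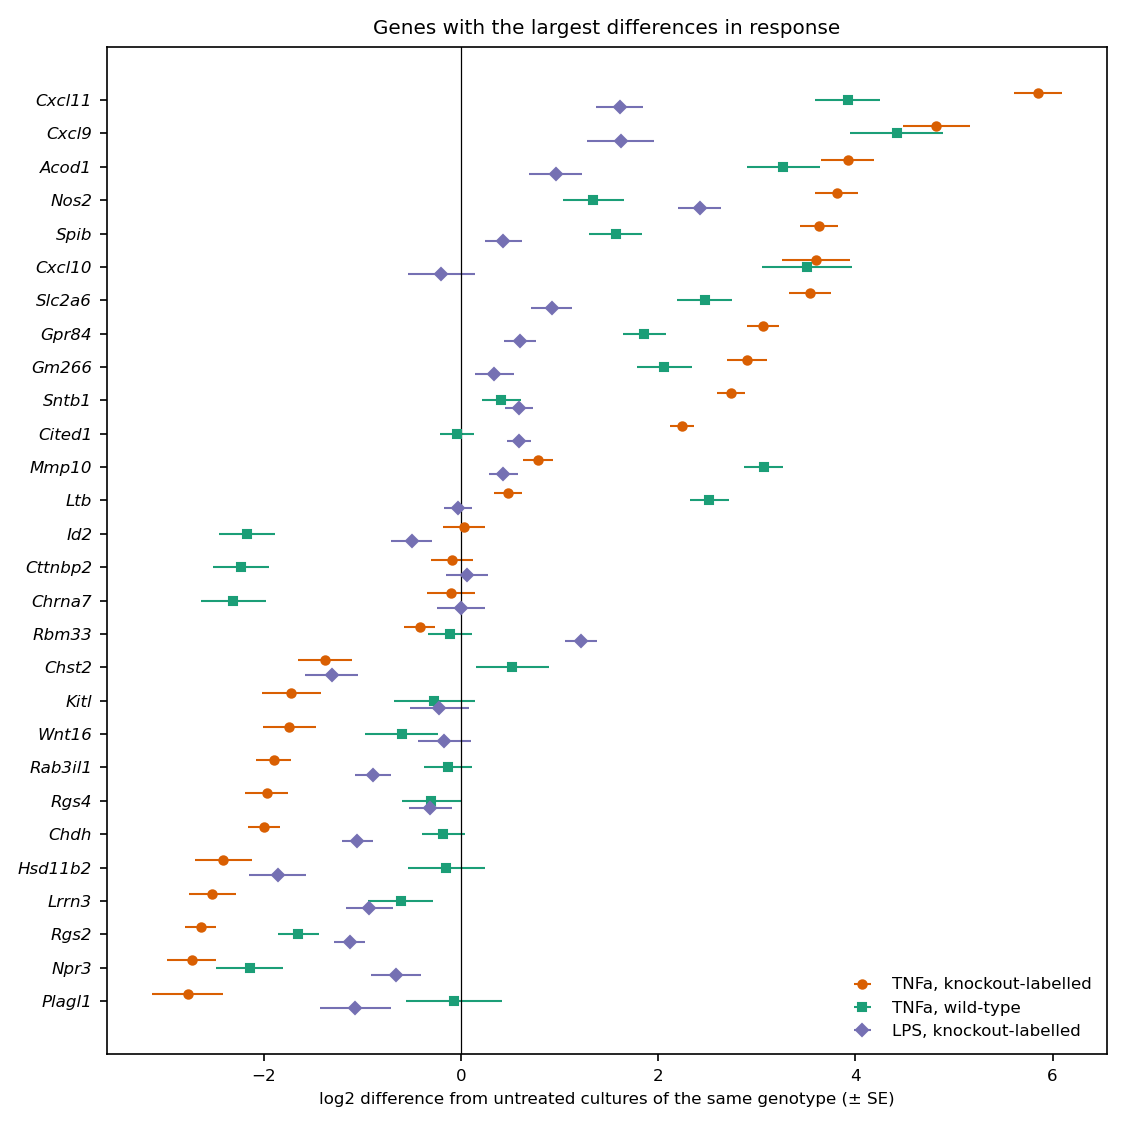
Log2 differences from untreated cultures of the same genotype, with SE, for the 8 largest differences in each direction between genotypes and between TNFa and LPS, under TNFa in knockout-labelled cultures (circles), TNFa in wild-type cultures (squares) and LPS in knockout-labelled cultures (diamonds). Cxcl10 stands at 3.60 under TNFa in knockout-labelled cultures and near 0 under LPS, and Id2 stands near 0 in knockout-labelled cultures.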

How the data were processed

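RNA of cultured mouse synovial fibroblasts was hybridised to one-colour Affymetrix arrays, and the 42 arrays carry 45101 probe sets. The authors' deposited values were made with RMA, per the submitters' processing notes, and are log2 values centred on each probe set's median over the arrays; the base of the log and the centring were inferred from the values, whose largest range within a probe set was 9.81. RMA evens out the distributions of the arrays, so a change in total RNA cannot be seen, and centred values allow no filter on low levels. Of the probe sets, 34958 had 1 gene in the platform annotation, 932 had several and 9211 had none, and 34754 were matched to current symbols by gene number. Each of the 18194 genes was read from 1 probe set, the one of highest SD, avoiding 387 probe sets whose correlation with the 18S ribosomal RNA probe set exceeded 0.7 (67 genes had no other). Group means of 12 groups were fitted over all 42 arrays with limma 3.58.1 (lmFit and eBayes, R 4.3.3, 30 residual degrees of freedom), with Benjamini-Hochberg adjustment over all genes, and the fit was tested on simulated data. The culture sets were found from probe sets with an empty gap between arrays (12 of 17 such probe sets in the knockout-labelled arrays gave this split). The number of arrays limits the precision.

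Members, gene lists and tests were chosen with earlier results of these data known. Genes named are Tnfaip6, the 15 largest rises and falls among genes with separate arrays, up to 10 members of a list by smallest p with those of opposite direction or not past the threshold where needed, the 5 smallest p in each direction among changes under 1.5-fold, and the 8 largest differences each way from wild-type cultures and from LPS. The alternatives covered the arrays in the fit, array weights, normalization, the choice of probe set, a filter on SD, the culture set, the 18S signal, the replicate number, each array left out and a threshold of 0.01.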

Additional observations from a re-analysis of the deposited data

Results flagged for a closer look

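Among the TNFa arrays of knockout-labelled cultures, a single array stood apart from the others for Cttnbp2 (array 4 at -0.38, the others -0.20 to -0.17), Itgam (array 2 at -0.27, the others 0.05 to 0.10) and Junb (array 1 at 0.63, the others 0.33 to 0.37). The same held for Madcam1 (array 4 at 2.81, the others 1.38 to 1.59), Nog (array 1 at 0.74, the others 0.40 to 0.41) and Ptprc (array 4 at -0.18, the others 0.08 to 0.13). The same held for Sema3e (array 2 at -0.18, the others -1.26 to -1.18), Tlr3 (array 4 at 1.55, the others 0.68 to 0.82) and 1500009L16Rik (array 2 at 2.59, the others 2.99 to 3.05). The same held for Pcdh9 (array 1 at -1.0, the others -0.32 to -0.22) and Gabarapl1 (array 1 at 0.41, the others 0.12 to 0.17). Among the untreated arrays of knockout-labelled cultures, a single array stood apart from the others for Bmp2 (array 6 at 0.23, the others -0.15 to 0.02), Bmpr1b (array 8 at -0.68, the others -0.05 to 0.40) and Cd74 (array 4 at -0.89, the others -0.14 to 0.20). The same held for Cebpa (array 3 at 1.35, the others 0.59 to 0.93), Gas1 (array 3 at 0.54, the others 0.16 to 0.32) and Ifnb1 (array 8 at 0.84, the others -0.15 to 0.21). The same held for Nlrp3 (array 4 at -0.98, the others -0.48 to -0.10), Nog (array 4 at -0.41, the others -0.24 to -0.09) and Ptgir (array 3 at -0.34, the others 0.13 to 0.40). The same held for Rela (array 3 at 0.40, the others -0.18 to 0.02), Rfx5 (array 3 at -0.06, the others 0.18 to 0.40) and Tlr4 (array 7 at -1.01, the others -0.18 to 0.41). It also held for Vegfd (array 3 at 1.75, the others 0.63 to 1.02). The measure was the gap to the nearest array over the range of the group, and chance gives such a gap in about 1 in 20 groups. Of 560 gene and group pairs screened 24 had one, no more than that share, 28.

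By the limma test of the difference itself, the TNFa response was unlike between genotypes for 147 genes (0.808%). Among the genes named, the response of knockout-labelled minus that of wild-type cultures was above 0 for Adamts4 (1.34), Bmp2 (1.76), Chrna7 (2.21), Cited1 (2.28), Clic5 (0.73), Col18a1 (1.29), Csf3 (1.84), Cttnbp2 (2.14), Cxcl11 (1.94), Dgat2 (1.39), Dhx58 (1.61), Gpr84 (1.20), Id2 (2.20), Mlkl (1.01), Nog (0.62), Nos2 (2.47), Nrp2 (1.24), Parp12 (0.66), Psmb10 (0.76), Sntb1 (2.33), Spib (2.06), Tnfrsf1b (0.72) and Trim21 (0.86). It was below 0 for Bmp4 (-1.51), Cdkn1c (-1.31), Chdh (-1.82), Chst2 (-1.90), Cxcl3 (-1.29), Hsd11b2 (-2.26), Idh2 (-0.78), Lrrn3 (-1.91), Ltb (-2.04), Mmp10 (-2.29), Plagl1 (-2.69), Plin4 (-1.73), Rab3il1 (-1.77), Rgs4 (-1.67) and Pcdh9 (-1.52). These differences rest on 2 wild-type TNFa arrays, and fewer genes passed without the second of them. The untreated levels of some of these genes differed between the genotypes as well, as given above for Hsd11b2, Chdh and Chrna7.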

How the results depend on the processing

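For the TNFa response of knockout-labelled cultures (2552 genes), the counts outside 1.5 times that number were 1206 genes in set a alone, 1324 in set b alone, 1694 with a replicate block and 1601 at an adjusted p under 0.01, and leaving out 1 array at a time gave 1884 to 2615. The difference from wild-type cultures (147 genes) gave 80 in set a alone, 271 after quantile normalization, 404 with the culture set as a block, 32 without the arrays of high 18S signal, 18 with a replicate block and 58 at an adjusted p under 0.01, and 43 to 163 with 1 array left out, the lowest without the second wild-type TNFa array. The comparison with LPS (636 genes) gave 1134 with the culture set as a block, 279 and 324 in sets a and b alone, 273 without the arrays of high 18S signal and 396 at an adjusted p under 0.01, and 480 to 582 with 1 array left out. Single sets and left-out arrays hold fewer samples; otherwise the cause was not tested. Of the genes named, Bmf had 0.03 in place of a fall when probe sets of shared sequence were left out. The replicate numbers did not pair the arrays (r of same-numbered arrays 0.582, 0.079, -0.186 and 0.210), so the replicate block is given here alone. Each untreated array correlated best with 1 TNFa array (1 and 2 with TNFa array 1, 3 and 4 with 2, 5 and 6 with 3, 7 and 8 with 4; r 0.200 to 0.582), a hint from the data with no label behind it. A fit with these 4 blocks, chosen after seeing the data, called 3599 genes.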
